A study of Mus musculus with 2 samples.

Results

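The Reg genes encode a family of small secreted C-type lectins, and 7 of them (Reg1, Reg2, Reg3a, Reg3b, Reg3d, Reg3g and Reg4) were examined in the small intestine of mice that carry an IL-9 transgene. The members were taken as all probe sets (short oligonucleotides that together measure a transcript) that a platform annotation assigns to these symbols. The family is 7 of 18194 genes named on the array and 8 of its 45101 probe sets, 2 for Reg3b and 1 for each other gene, and none of them carried a second gene symbol. Total RNA (10 µg) from 3 pooled IL-9Tg mice, the transgenic group, and from 3 pooled wild-type mice was labelled and hybridised to Affymetrix MOE430 2 arrays, 1 array for each pool. Both groups were on the BALB/c background, 6 to 8 weeks old and without treatment. The sources used here name neither the promoter of the transgene nor the cells that express it, and pooling hides the spread between animals. No difference below therefore has a replicate check, and no p-value is given.

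Reg3 proteins are made by enterocytes and Paneth cells and released into the gut lumen. Reg3g binds peptidoglycan and kills Gram-positive bacteria, which helps to keep bacteria away from the epithelial surface, while Reg3b acts mainly against Gram-negative bacteria. Their transcription is known to depend on bacterial signals through Toll-like receptors and MyD88, and on IL-22 through STAT3. Reg1 and Reg2 are best known as products of the exocrine pancreas that are linked to regeneration. Reg4 lies apart from the others in the genome and is made by secretory cells of the gut, including enteroendocrine and goblet-type cells.

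The Reg genes did not differ between the pools in one direction. Reg4 was 2.99-fold higher in the transgenic pool, Reg3b and Reg3g were 1.998-fold and 1.86-fold lower, and the other members differed less. In bulk tissue, fewer cells of a type and less RNA per cell cannot be told apart, here and in all values that follow. Differences are those of log2(intensity + 1), transgenic minus wild-type pool, and a gene counts as higher or lower when it differs by 2-fold. By that rule 1 of the 7 genes was higher and 0 were lower. Among the 11862 genes of the array past an expression filter, 0.607% were higher and 0.202% were lower by 2-fold. Of the 8 probe sets 1 was higher and 0 were lower, against 0.277% and 0.111% of all probe sets. At 1.5-fold, Reg4 was higher, against 1.68% of the genes past the filter, and 2 members, Reg3b and Reg3g, were lower, against 1.45%. The filter asks that the higher of the 2 values reaches the median of all values, an intensity of 78.5, and 6 of the 7 Reg genes met it. Reg2 did not.

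The sequences before the gene starts of Reg3b, Reg3g and Reg4 are shown because these genes carry the differences, the first pair downward and Reg4 upward. Each run is the 250 bases before the start, read 5′ to 3′ on the gene's own strand, from RefSeq for mouse build GRCm38.p6, where all 7 genes had an entry. Capitals mark matches to TATAAA (the TATA box) or TTCNNNGAA (a STAT motif), searched on both strands.
Reg3b, chr6:78370635-78370884, plus strand: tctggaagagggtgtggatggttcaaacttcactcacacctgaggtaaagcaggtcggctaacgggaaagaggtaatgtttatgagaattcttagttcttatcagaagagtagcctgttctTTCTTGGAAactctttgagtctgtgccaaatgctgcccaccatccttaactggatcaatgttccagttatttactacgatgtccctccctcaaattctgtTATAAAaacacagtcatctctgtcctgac
Reg3g, chr6:78468875-78469124, minus strand: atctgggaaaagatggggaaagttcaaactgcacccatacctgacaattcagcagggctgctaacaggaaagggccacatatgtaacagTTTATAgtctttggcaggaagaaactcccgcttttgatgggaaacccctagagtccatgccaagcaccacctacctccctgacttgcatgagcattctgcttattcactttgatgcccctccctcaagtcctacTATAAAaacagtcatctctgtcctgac
Reg4, chr3:98221906-98222155, plus strand: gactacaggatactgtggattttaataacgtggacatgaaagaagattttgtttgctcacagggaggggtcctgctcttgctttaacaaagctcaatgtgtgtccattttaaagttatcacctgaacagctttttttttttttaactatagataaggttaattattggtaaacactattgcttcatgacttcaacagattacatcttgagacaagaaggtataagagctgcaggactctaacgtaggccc
Both Reg3b and Reg3g hold TATAAA on the coding strand close to the start, at 29 to 24 bases before it in Reg3b and at 27 to 22 in Reg3g. The same letters stand at 30 to 25 bases before the start in Reg1 and Reg2. They were not found in the windows of Reg3a, Reg3d and Reg4, while 12.4% of 32851 windows of this length hold them on either strand. Only these exact letters were searched, and tataag, which Reg4 holds near its start, was not counted. Reg3g also has a match on the opposite strand, at 161 to 156 bases before its start. TTCNNNGAA occurs in Reg3b (TTCTTGGAA, 129 to 121 bases before the start) and in Reg3d (TTCCCAGAA, 238 to 230 bases before it), against 7.02% of all windows. An AP-1 motif, TGANTCA, occurs in Reg1 as TGAGTCA and in 6.75% of all windows. NF-kB was searched as a fixed, narrow pattern, which is in none of the 7 windows and in 1.41% of all. Other forms of the NF-kB site were not searched, so the 7 windows, that of Reg3g included, are not shown to lack such sites. A match is a description and no evidence of binding.

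The windows of Reg3b and Reg3g were the most alike of the 21 pairs of members, with 68.9% identity over 257 alignment columns, followed by Reg1 and Reg2 with 58.5%. Both end in the same 20 bases right before the start, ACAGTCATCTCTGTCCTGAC, the longest run shared by any pair. Reg4 aligned with the other members at 47.8% to 50.2%, and Reg3b with Reg3a at 47.9%. Reg3b and Reg3g, the pair with the most similar windows, also had the largest downward differences, and a link was not tested. The identity figures describe letters of the reference sequence only. Windows of unrelated genes were not aligned, so no background stands beside these figures.

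Reg3b, the lectin active against Gram-negative bacteria, was measured by both of its probe sets. Probe set 1448290_at read 11069 in the wild-type and 5540 in the transgenic pool, a difference of -0.998, just under 2-fold. Probe set 1416297_s_at read 8919 and 5294, a difference of -0.75. Both were lower in the transgenic pool, and they lay 0.25 apart. Where a gene had more than 1 probe set past the filter (4965 genes), those sets differed among themselves with an SD of 0.23 log2 units, and over the 363 such genes at or above the 95th percentile of intensity it was 0.22. This spread lies within the 2 arrays and carries no information on differences between animals, and its sources were not examined. Only 24 of the 11862 genes had a lower difference than Reg3b, and they are the same 24 that were past 2-fold. Its call turns on the scaling, since it was past 2-fold, at -1.02 and -1.01, after quantile normalization of both arrays and after centring each on its median.

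Reg3g, which kills Gram-positive bacteria, read 4417 in the wild-type and 2376 in the transgenic pool. The difference was -0.89, and 33 genes past the filter lay lower. Reg3g and Reg3b thus lay 0.10 apart, within the spread between probe sets of one gene. Reg3a, a further lectin of the Reg3 group, read 3882 and 2949, a difference of -0.40. That is inside the range from -0.49 to 0.50 that held 95% of the genes past the filter, where 544 genes lay lower. Reg3d, known in the pancreas as INGAP-related protein, read 85.1 and 81.2, a difference of -0.07, and both values stood only just above the filter. The differences of all 4 Reg3 genes lay below 0, with a median of -0.65, and 0 of the 4 passed 2-fold; that of Reg3d was smaller than the spread between probe sets. Of all genes past the filter, 47.6% lay below 0. Reg3 genes are similar in sequence, and signal of one on the probe set of another was not tested here.

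**Figure D1:**
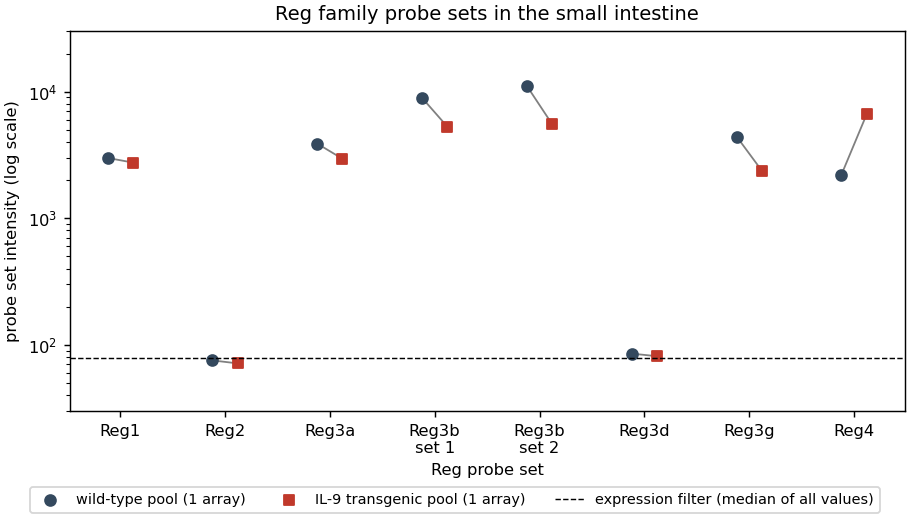
Intensity (log scale) of the 8 Reg probe sets in the wild-type pool (circles) and the IL-9 transgenic pool (squares), 1 array each, with a line joining the values of a probe set and a dashed line at the filter of 78.5. Reg3b set 1 is 1416297_s_at and set 2 is 1448290_at. Reg4 is the 1 probe set that is higher in the transgenic pool, and Reg2 lies below the filter in both. Heights of different probe sets are not comparable.

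Reg1 and Reg2, the members known from the exocrine pancreas, hardly differed. Reg1 read 2994 in the wild-type and 2753 in the transgenic pool, a difference of -0.12. Reg2 read 75.2 and 71.2, a difference of -0.08 between values below the filter. Both differences are smaller than the spread between probe sets of one gene.

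Reg4 read 2210 in the wild-type and 6612 in the transgenic pool. The difference was 1.58, and 31 of the 11862 genes past the filter and 51 of all 45101 probe sets lay higher. It was 2.58 above the difference of Reg3b on the log2 scale. Reg4 has 1 probe set on the array, so no second one repeats its value. It was just short of 3-fold, which 0.261% of the genes past the filter reached upward.

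**Figure D2:**
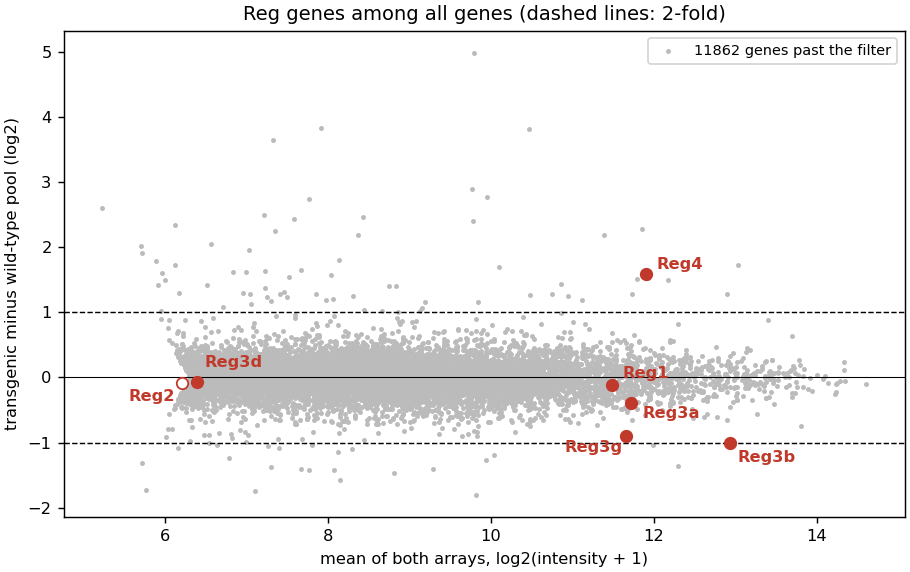
Difference between the pools (log2, transgenic minus wild-type) against the mean of both arrays for the 11862 genes past the filter (grey) and the 7 Reg genes (red, Reg2 open because it did not meet the filter), with the probe set of highest mean standing for each gene. Reg4 at 1.58 lies above the 2-fold line, Reg3b at -0.998 lies on the lower one, and Reg3g at -0.89 lies next to it.

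Across the 7 members the differences ran from -0.998 in Reg3b to 1.58 in Reg4, with a median of -0.12, against a median of 0.01 over all genes past the filter. Reg4, Reg3b and Reg3g were outside the range that held 95% of those genes, and the other 4 were inside it. The 6 genes other than Reg4 lie together on chromosome 6 in the RefSeq assembly GRCm38.p6, in the order Reg3b, Reg3d, Reg3a, Reg2, Reg1 and Reg3g, and Reg4 is on chromosome 3. All 6 clustered genes lay below 0, as did 47.6% of all genes past the filter. The differences of Reg1, Reg2 and Reg3d were smaller than the spread of 0.23 between probe sets of one gene, and Reg2 did not meet the filter. The lowest values belong to the genes at either end of the cluster, and Reg3d, Reg3a, Reg2 and Reg1 stand between them, with Reg3a at -0.40 the third lowest.

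**Figure D3:**
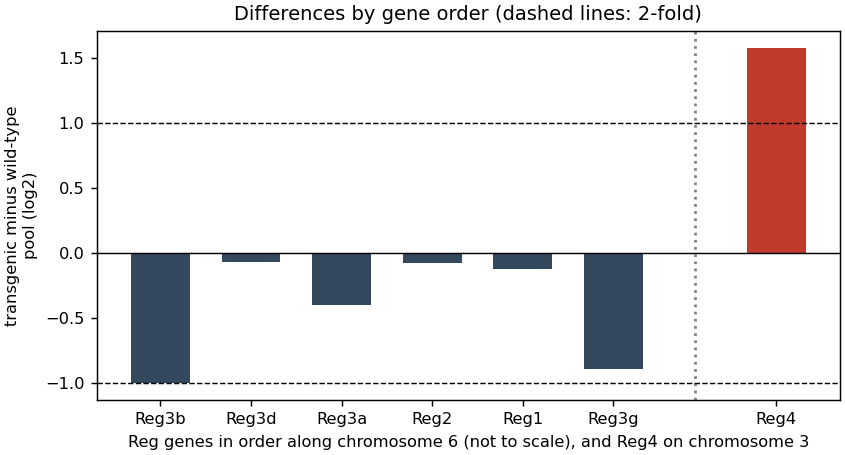
Difference between the pools (log2, transgenic minus wild-type, 1 array each) for the Reg genes in their order on chromosome 6, and for Reg4 on chromosome 3; bars start at 0, dashed lines mark 2-fold, and distances are not to scale. Reg3b at -0.998 and Reg3g at -0.89 stand at the ends of the cluster, and Reg4 at 1.58 is the only gene above 0.

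The other antimicrobial proteins of the gut epithelium went both ways. The list held 29 genes, 25 with a probe set of their own name and 17 that met the filter, of which 3 were higher and 0 lower by 2-fold. The 17 had a median of -0.02, with 8 above 0 and 9 below. The 3 were Retnlb, the goblet cell peptide RELM-beta (567 against 44.6, 12.5-fold, with the wild-type value below the filter), Duoxa2, the maturation factor of a peroxide-forming oxidase (561 against 83.1, 6.68-fold), and Ang4, a bactericidal ribonuclease (15190 against 4590, 3.31-fold). Without the filter the 25 had a median of 0.03. Of the 17, 14 met the filter in both pools. Retnlb and the defensin gene Defb1 (131 against 69.1, difference 0.92) met it through the transgenic pool alone. Nos2 (77.2 against 95.5, difference -0.30) met it through the wild-type pool alone. The differences of Reg3b and Reg3g lay below the lowest of these 17, which was -0.37 in Pglyrp1, a peptidoglycan recognition protein.

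Genes of the pathways that Reg3 transcription depends on, some of them induced by STAT3, showed no difference of 2-fold where they met the filter. Transcript levels of receptors, kinases and adaptors do not measure signalling, and the activity of these pathways was not tested. In the IL-22 and STAT3 list, 17 of 20 genes were named on the array and 13 met the filter, with 0 past 2-fold either way, 6 above 0, 7 below and a median of -0.02. Il22 shares its probe set with Iltifb, its near copy, and that set read 9.18 in the wild-type and 8.92 in the transgenic pool, far below the filter. Il22ra1, the receptor chain for IL-22 on epithelial cells, read 394 and 368, a difference of -0.10. The lowest value was in Socs3, an inhibitor induced by STAT3, at -0.51 (706 against 1003). That is just below the range from -0.49 to 0.50 that held 95% of the genes past the filter. The 3 probe sets of Socs3 lay at -0.51, -0.47 and -0.19, all lower in the transgenic pool. Stat3 itself differed by 0.03 in its brightest probe set, and its other sets ran from -0.53 to 0.13, so no direction is given. Of the remaining genes, Bcl3, a co-regulator of NF-kB, lay at -0.31 and Osmr, the oncostatin M receptor, at 0.31.

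Of 9 genes of group 3 innate lymphoid and Th17 cells, which make IL-22, 5 were named and 4 met the filter, with 0 past 2-fold and a median of 0.17; Ccr6, a chemokine receptor, lay at -0.48 and Ahr, the aryl hydrocarbon receptor, at 0.38.

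In the list of Toll-like receptor, IL-1 and IL-18 signalling, 17 of 20 genes were named on the array and 14 met the filter. None of the 14 passed 2-fold (0 higher and 0 lower), 6 lay above 0, 8 below, and the median was -0.04. Il18, an epithelial cytokine, had the largest difference at 0.42, and Irak1, a kinase of the pathway, the lowest at -0.39. Myd88, the adaptor that Reg3g transcription depends on, differed by 0.02 (448 against 443).

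Candidate receptors and growth factors linked to Reg proteins made up a list of 8, of which 7 were named and met the filter. None passed 2-fold (0 either way), 2 lay above 0, 5 below, and the median was -0.04. Extl3, the proposed receptor of Reg proteins, differed by -0.11 (248 against 267). Ereg and Hbegf, ligands of the EGF receptor, had the lowest values at -0.64 and -0.61, and Egfr itself differed by 0.08.

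Markers of cells that can make Reg proteins differed unevenly between the pools. In the goblet cell list all 12 genes met the filter, 1 of them through the transgenic pool alone, 1 (Retnlb) was higher and 0 lower by 2-fold, 9 lay above 0, and the median was 0.63. Their summed intensity was 82921 in the wild-type and 94830 in the transgenic pool. The goblet list was split. Muc2 (0.09), Tff3 (-0.004), Fcgbp (-0.15) and Zg16 (-0.22) differed by less than the spread between probe sets of one gene. Others lay higher, among them Clca1 (0.87) and Atoh1 (0.85). In the Paneth cell list 8 of 19 genes were named and 7 met the filter, with 2 higher, 0 lower, 6 above 0 and a median of 0.40. The 2 were Ang4 and Mptx1, a mucosal pentraxin (2.89-fold). Their summed intensity over the 8 genes was 69038 against 52653, while Lyz1, Paneth cell lysozyme, differed by -0.25. In the enteroendocrine list 14 of 16 genes met the filter, 0 were past 2-fold, 6 lay above 0 and 8 below, and the median was -0.04. Chga, the granule protein chromogranin A, differed by 0.03, and Tph1, the serotonin-forming hydroxylase, by 0.61. Summed intensity was 12231 in the wild-type and 11449 in the transgenic pool. Reg4 at 1.58 stood beside a higher median in the goblet and Paneth lists and not in the enteroendocrine list. The goblet genes were split, however, and only 8 of the 19 Paneth genes were named on the array. The part of these cells in the value of Reg4 was not tested.

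Reg1 and Reg2 are also products of pancreatic acinar cells, whose markers were therefore read. Of 30 exocrine pancreas genes 21 were named and 12 met the filter, with 3 higher and 0 lower by 2-fold, 6 on either side of 0 and a median of 0.01. The 3 were Pnliprp1 (5.42-fold), Pnliprp2 (4.86-fold) and Clps (2.84-fold), which serve lipid digestion. The acinar enzymes went to either side of the filter. Cela1 read 251.6 in the transgenic and 260.1 in the wild-type pool, Cela3b 173.9 and 165.7, Prss2 147.9 and 155.9, Ctrl 128.7 and 120.3 and Ctrb1 101.8 and 106.8, all past the filter in both pools with differences from -0.08 to 0.10. Cpa1 (63.8 and 63.5), Cela2a (22.3 and 23.3) and the acinar transcription factor Ptf1a (29.2 and 22.3) were below it in both. Their part in the values of Reg1 and Reg2 was not tested. Summed intensity over the 21 was 24821 in the transgenic and 15015 in the wild-type pool. Its largest parts were Spink1 (8634 and 9579), Pnliprp2 (8180 and 1682) and Clps (5963 and 2099), so the sum does not describe the acinar enzymes. In the neutrophil list 1 of 9 named genes met the filter, Elane at 0.13 (89.8 against 81.8), and the summed intensity over the 9 was 527 against 501.

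**Figure D4:**
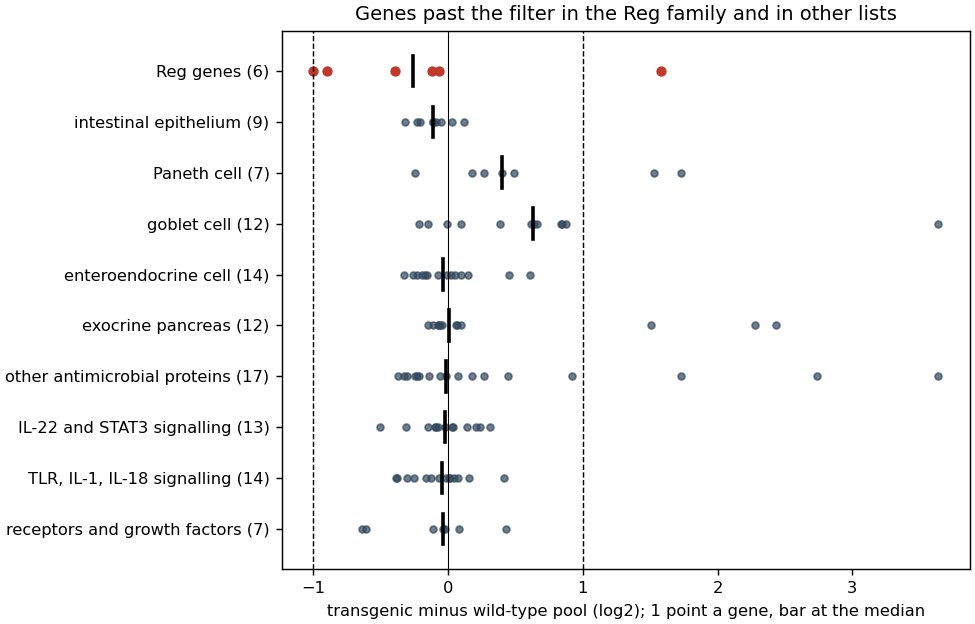
Difference between the pools (log2, transgenic minus wild-type) of every gene past the filter in the Reg family (red) and in 9 gene lists (dark), 1 point a gene, with a bar at the median and dashed lines at 2-fold; counts of genes stand in brackets. The Reg genes range from -0.998 to 1.58, and the goblet and Paneth lists have medians of 0.63 and 0.40. The signalling lists have medians around 0, with single genes on either side.

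Markers of the intestinal epithelium were past the filter in both pools, while those of the distal segment were so only in part. All 9 named genes of the intestinal epithelium list met the filter, 0 were past 2-fold, and their median was -0.11, with 7 below 0, Lct, lactase, the lowest at -0.32, and summed intensities of 110920 in the transgenic and 116991 in the wild-type pool. Reg3 genes are expressed unevenly along the gut, so segment markers are given as well. Of the proximal list 8 of 8 genes met the filter, with a median of -0.01, 4 above 0 and 4 below. The 1 gene lower by 2-fold was Cubn, a vitamin B12 carrier receptor (-1.03), followed by Onecut2 at -0.57. Whether Cubn marks the proximal gut was not checked, so its value is not assigned to a segment. Of the distal list 4 of 7 genes met the filter, with a median of 0.20, 2 above 0 and 2 below. The 2 above were Muc3 at 0.82 and Slc51b at 0.49. The ileal genes Fabp6 (13.3 in both pools) and Slc10a2 (7.73 in the transgenic and 8.03 in the wild-type pool) were below the filter. Of the colon list 2 of 5 named genes met it, Aqp8 at -0.73 and Slc26a3 at -0.21. The part of tissue sampling in the Reg differences was not tested.

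Il9, the transgene, read 71.6 in the wild-type and 62.2 in the transgenic pool on its single probe set, both below the filter, so that the array does not check the labels. The actin 3′ to 5′ probe set ratio, a sign of RNA integrity, was 1.33 in the transgenic and 1.61 in the wild-type pool, and the Gapdh ratio 1.08 and 1.22. The ratios of the other 2 controls were higher in the transgenic pool, at 4.70 against 3.68 for the transferrin receptor and 3.87 against 3.60 for pyruvate carboxylase. Of the 4 genes of the RNA quality list, 0 were past 2-fold, from -0.10 in Actb to 0.31 in Pcx, with a median of 0.13. The arrays had median intensities of 78.7 and 78.3.

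The genes with the pair of log2 values nearest to each main member were sought among the other 11861 genes past the filter. The distance is Euclidean over the 2 arrays, depends on how bright each probe set is, and is a description of these 2 values. For Reg4 they were Mptx1 (distance 0.05, difference 1.53), Clps (0.17, difference 1.51) and Car4, a carbonic anhydrase (0.33, difference 1.27). For Reg3b they were Ptgr1 (0.25, difference -0.66), Smim22 (0.36, difference -0.61) and Cyp4v3 (0.39, difference -0.45). For Reg3g they were Sod1, the cytosolic superoxide dismutase (0.20, difference -0.65), Cntd1 (0.26, difference -0.53) and Pdzk1, a scaffold of brush border transporters (0.29, difference -0.49). All 9 of these genes differed less between the pools than the Reg gene they stand nearest to. The main members were picked for their large differences and few genes lie beyond them. Such an outcome was therefore likely beforehand, and it does not set the Reg genes apart.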

How the data were processed

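The deposited values are probe set intensities on a linear scale for 2 arrays, each of 1 pool. The submitters' processing notes name RMA (version not given), a method that subtracts background, makes the intensity distributions of arrays alike and combines probes, so a shift shared by most genes is lost. The sources used here give neither a genome build nor the chip annotation used by the authors. Gene names came from GEO's platform annotation (34958 probe sets with 1 symbol, 932 with several, 9211 with none), and all 7 Reg genes matched RefSeq's table for GRCm38.p6 by Entrez identifier. Probe sets with several symbols name no gene, except that the set shared by Il22 and Iltifb is given as shared.

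Values were taken as log2(intensity + 1) in Python 3.11.15 with pandas 2.3.3, and the brightest probe set on average stood for a gene (18194 genes). With 1 array for each group no test was run, and the number of arrays limits the precision. The members and gene lists were chosen with earlier results of these data known. Named from each list were up to 4 genes past 2-fold, or the 2 largest differences where fewer passed; all genes of the IL-22, receptor and RNA quality lists could be named, as could Il9 and the 3 genes nearest to Reg3b, Reg3g and Reg4. Myd88, Pglyrp1, Defb1, Nos2, Lyz1, Chga, Spink1, the goblet genes other than Retnlb, and the acinar and ileal genes were named after their values were seen. Samples were grouped by the source in their labels. The procedure was run on simulated data with large planted differences and no variation between animals. That run checks the calculation only and says nothing on whether a difference between these pools would recur. Alternatives were other pseudocounts, scalings, filters, fold thresholds and ways to combine probe sets. A planned comparison of the Reg proteins was not run.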

Additional observations from a re-analysis of the deposited data

How the results depend on the processing

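All 42 values of the Reg differences under other pseudocounts (none or 16), both scalings, the mean over probe sets and without _x_at and _s_at sets moved by less than 0.23, the SD between probe sets of one gene, and kept their sign. Reg4 ran from 1.56 to 1.58, Reg3b from -1.02 to -0.88 (the latter when its sets were averaged) and Reg3g from -0.92 to -0.89. The count of Reg genes higher by 2-fold, 1, became 0 at 3-fold. The count lower, 0, became 1 after quantile normalization and 1 after centring on the median, in both cases Reg3b, which lies on the threshold, and 2 at 1.5-fold. Over all genes, 199 were higher and 172 lower at 1.5-fold and 31 and 3 at 3-fold, and the filter at the 75th percentile left 15 lower, since fewer genes enter. Of 119 list medians under the alternatives, 114 stayed within 0.23. The exceptions were the distal list (0.49 without _x_at and _s_at sets, -0.05 without a filter), the colon list (0.06 without a filter, -0.21 at the 75th percentile) and the exocrine pancreas list (1.51 at the 75th percentile); the cause was not tested. No paired analysis was possible because each group has 1 array. Background signal shrinks the differences of Reg2 and Reg3d, so a change in them may not have been detectable.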
